A study of Mus musculus with 6 samples.

Results

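Tyrosine and tryptophan are broken down mainly in the liver, and 9 enzymes of these routes were examined in aged mouse liver with and without *Sirt7*, which encodes a NAD-dependent deacylase of the sirtuin family. They were *Tat*, *Hpd*, *Hgd*, *Gstz1* and *Fah* for tyrosine, and *Tdo2*, *Kmo*, *Kynu* and *Haao* for tryptophan. The genes were chosen by name as steps of the 2 routes, with earlier results of these data known. All 9 were among the 12524 genes with enough reads to test, out of 54115 genes for which reads were summed. Liver RNA was sequenced from 3 WT and 3 *Sirt7* KO mice, all male, 24 months old and fasted for 16 h before the liver was taken. The KO mice carry the loss of *Sirt7* in the whole body on a C57BL/6J background, and WT and KO animals were bred as littermates from heterozygous parents. Each liver came from a different mouse. Livers are named here by genotype and label number. The labels do not say that the numbers pair mice, and the mice were treated as unpaired.

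In the tyrosine route, TAT removes the amino group, HPD forms homogentisate, HGD cleaves its ring, GSTZ1 isomerizes the product, and FAH splits it into fumarate and acetoacetate. Loss of HGD causes alkaptonuria and loss of FAH causes a severe tyrosinemia in humans, and HPD is the target of the drug nitisinone. In the tryptophan route, TDO2 opens the indole ring as the entry step in hepatocytes, KMO and KYNU act on kynurenine and its hydroxylated product, and HAAO makes the precursor from which quinolinate and then NAD can form. *Tat* and *Tdo2* are classic glucocorticoid-responsive genes of the liver.

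Upstream sequences of 3 members are shown because their genes behaved differently across the livers: *Haao* had the largest positive difference, *Hgd* varied in the same way with a smaller difference, and *Tat* followed another order of livers. They were taken from the RefSeq promoter table (GRCm38.p6), in which 8 of the 9 members were found and *Kynu* was missing. Bases in exons of coding transcripts were left out. Each is written 5′ to 3′ on the strand of the gene, and capitals mark matches, on either strand, to a set of short motifs chosen after the expression values were seen.
*Haao*: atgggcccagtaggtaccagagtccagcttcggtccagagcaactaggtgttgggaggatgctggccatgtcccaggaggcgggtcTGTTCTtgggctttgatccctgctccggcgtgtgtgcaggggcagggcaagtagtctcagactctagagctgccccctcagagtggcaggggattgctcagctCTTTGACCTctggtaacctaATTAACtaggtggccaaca
*Hgd*: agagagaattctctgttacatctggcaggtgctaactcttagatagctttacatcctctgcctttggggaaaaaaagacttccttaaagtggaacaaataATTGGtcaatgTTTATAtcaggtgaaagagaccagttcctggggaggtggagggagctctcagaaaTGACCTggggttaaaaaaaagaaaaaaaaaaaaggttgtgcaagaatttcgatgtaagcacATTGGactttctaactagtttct
*Tat*: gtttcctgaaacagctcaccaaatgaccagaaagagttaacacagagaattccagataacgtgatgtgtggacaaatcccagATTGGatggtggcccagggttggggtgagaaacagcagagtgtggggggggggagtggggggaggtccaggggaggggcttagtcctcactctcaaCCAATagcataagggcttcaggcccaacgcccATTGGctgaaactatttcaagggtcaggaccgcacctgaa

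The *Haao* window lies at chr17:83846813-83847040 on the minus strand, the *Hgd* window at chr16:37579903-37580152 on the plus strand and the *Tat* window at chr8:109990186-109990435 on the plus strand. The search covered the core promoter element TATAAA and the box CCAAT that NF-Y binds. It also covered GTTAAT, which is part of an HNF1 site, and the hexamer AGGTCA of nuclear receptors. The longer word GGTCAAAG belongs to a direct repeat of such hexamers. The word AGAACA is the hexamer of the glucocorticoid receptor. The palindrome CACGTG is an E-box. The *Tat* window held CCAAT 3 times, at 168, 72 and 40 bases before the start site. The *Hgd* window held CCAAT 2 times, AGGTCA once and TATAAA once, the last at 139 bases before the start site. In *Haao*, GTTAAT began 41 bases before the start site, and GGTCAAAG and AGGTCA overlapped each other at 61 and 58 bases. AGAACA was found once in *Haao*, at 164 bases, and not in the *Tat* window. Among 32536 promoter windows of 250 bases, CCAAT occurred in 33.8%, AGGTCA in 14.0%, GTTAAT in 6.47%, GGTCAAAG in 0.842%, AGAACA in 16.0%, TATAAA in 12.3% and CACGTG in 6.04%. Over the 8 windows with sequence left, which belong to 7 members and are at most 250 bases long, CCAAT was in 4, AGGTCA in 2 and CACGTG in 0. These matches describe letters and are no record of factor binding.

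Depth was 9994860 to 13424776 reads per liver, and the biological coefficient of variation over all genes was 26.4%. *Sirt7* was measured at 55.2, 45.5 and 47.3 CPM, counts scaled to the size of the library, in WT and at 28.6, 41.7 and 40.8 CPM in KO livers, and its full-length isoform held 63.9% to 76.0% of its reads in WT and 18.3% to 39.8% in KO livers. Reads of shorter *Sirt7* isoforms remained, and in TPM, a transcript share corrected for isoform length, summed *Sirt7* was higher in the KO livers (34.7 to 68.0) than in WT (27.3 to 34.4). The livers were not equally alike within genotypes. *Sirt7* KO 1 had Spearman correlations over genes of 0.950 to 0.952 with the other KO livers, against 0.973 between those, and of up to 0.961 with WT. Its share of mitochondrial reads was 3.17%, against 1.65% to 2.68% in the other 5 livers. *Sirt7* KO 3 held reads of all 6 kidney markers examined, 35.3 CPM in sum, whereas the other livers held 0 to 2 reads of them.

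Per length, the 9 mRNAs covered a wide range of levels. *Hpd* was the most abundant, with a mean of 1662 TPM over the 6 livers (range 1280 to 2210), and was above *Tdo2* in every liver without overlap of their ranges. *Tdo2* followed with 858 TPM (686 to 1258) and *Gstz1* with 574 TPM (461 to 692). *Haao* (457 TPM), *Fah* (416 TPM), *Tat* (371 TPM) and *Hgd* (325 TPM) formed a middle group in which the ranges of neighbors overlapped. *Tat* was above *Hgd* in only 3 of the 6 livers. *Kmo*, with 96.0 TPM (54.8 to 121), and *Kynu*, with 43.2 TPM (32.2 to 62.2), were the least abundant, and *Kmo* did not overlap *Hgd*. In the tryptophan route, the entry enzyme mRNA thus stood above that of *Kmo* and *Kynu* in every liver. Summed over the 9 genes, the level was 4331, 4871 and 4378 TPM in WT 1, 2 and 3, and 3665, 6029 and 5535 TPM in *Sirt7* KO 1, 2 and 3. *Sirt7* KO 1 had the lowest sum of the 6 livers and *Sirt7* KO 2 the highest.

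The comparison of genotypes asks whether loss of *Sirt7* alters these mRNAs in the aged, fasted liver. By the mean, 8 of the 9 members were higher in KO livers and *Tdo2* was lower, with a median log2 fold change (KO over WT) of 0.31 against -0.0061 over all genes tested. A log2 fold change above 0 was seen in 49.3% of all genes. Because the members were chosen with earlier results of these data known, no test was made over the list. None of the 9 was called by edgeR at an adjusted p under 0.05 and a fold change over 1.5, a rule met by 1 gene, or 0.00798% of those tested. At an unadjusted p under 0.05, *Kynu* and *Haao* were higher and no member was lower, against 6.54% of all genes higher and 4.78% lower (11.3% together). DESeq2 called 0 of the 9 as well, with 3 members higher at an unadjusted p under 0.05 both with and without length offsets. The share of all genes at that level was not counted for DESeq2. In these bulk samples, a difference in the share of hepatocytes and a difference in mRNA per hepatocyte cannot be told apart.

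**Figure D1:**
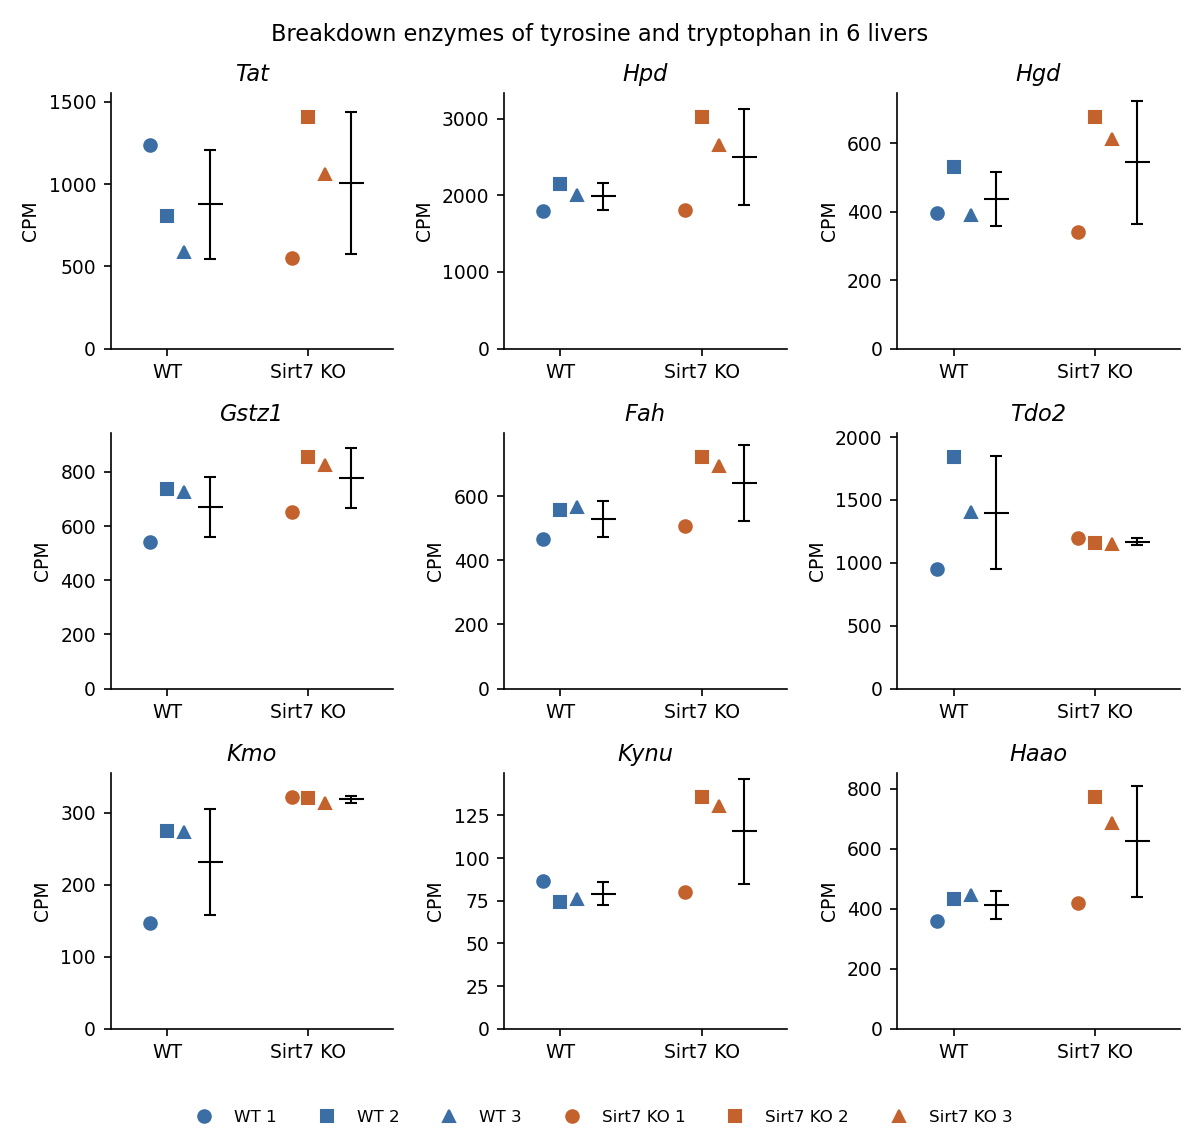
TMM-scaled CPM (y axis, from 0) of the 9 enzyme genes by genotype, 1 panel per gene. Points are single livers with their label numbers, and the black bars give the mean and SD of 3 livers. In most panels Sirt7 KO 2 and 3 are above the WT points and Sirt7 KO 1 is not, and Kmo is the panel in which all 3 KO livers are above all WT livers.

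Among the tyrosine enzymes, *Hpd* (ENSMUSG00000029445.13, chr5:123171807-123182727), the dioxygenase that forms homogentisate, was at 1800.3, 2153 and 2005 CPM in WT 1, 2 and 3 and at 1805, 3026 and 2663 CPM in *Sirt7* KO 1, 2 and 3. *Sirt7* KO 2 and 3 were above every WT liver, whereas *Sirt7* KO 1 was within the WT range in CPM. *Hgd* (ENSMUSG00000022821.13, chr16:37580153-37632020), which cleaves the homogentisate ring, was at 395, 529 and 389 CPM in WT and 341, 677 and 612 CPM in KO livers, with *Sirt7* KO 1 below every WT liver. *Gstz1* (ENSMUSG00000021033.11, chr12:87147165-87164723), the maleylacetoacetate isomerase, was at 542, 738 and 727 CPM in WT and 650.2, 856 and 826 CPM in KO livers. Here WT 1 was the lowest, and the order of the other livers was as for *Hpd*. *Fah* (ENSMUSG00000030630.16, chr7:84585159-84606722), the last enzyme, was at 465, 556 and 566 CPM in WT and 505, 722 and 694 CPM in KO livers. For these 4 genes the genotypes overlapped through *Sirt7* KO 1 alone. Their log2 fold changes were 0.33 ± 0.21 (SE) for *Hpd*, 0.31 ± 0.26 for *Hgd*, 0.22 ± 0.18 for *Gstz1* and 0.28 ± 0.18 for *Fah*, with adjusted p of 0.613 to 0.713. The 95% interval of *Hpd* ran from -0.15 to 0.82 and included 0, as did those of the other 3.

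*Tat* (ENSMUSG00000001670.13, chr8:109990437-109999803), the aminotransferase that starts the route, behaved differently. Its level was 1239, 804 and 585 CPM in WT 1, 2 and 3 and 553, 1409 and 1063 CPM in *Sirt7* KO 1, 2 and 3. In CPM, WT 1 was the second highest liver for *Tat*, although it was the lowest for 6 of the other members, and *Sirt7* KO 1 was the lowest. The means were 876 ± 333 CPM in WT and 1009 ± 431 CPM in KO livers (SD, n = 3 each), and the log2 fold change was 0.20 ± 0.36 (adjusted p = 0.881). This was the largest standard error of the 9, and leaving out WT 3 or *Sirt7* KO 2 turned the sign (-0.014 and -0.12).

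Among the tryptophan enzymes, *Tdo2* (ENSMUSG00000028011.16, chr3:81957090-81976202) was at 949, 1844 and 1406 CPM in WT 1, 2 and 3 and at 1197, 1161 and 1148 CPM in *Sirt7* KO 1, 2 and 3. In CPM all KO livers lay between WT 1 and WT 3, so that the spread was on the WT side (SD 447 CPM, against 25.5 CPM in KO livers). In TPM *Sirt7* KO 1 (686) was below WT 1 (724). The log2 fold change was -0.26 ± 0.23 (adjusted p = 0.724). It was -0.011 without WT 2 and -0.48 without WT 1. *Kmo* (ENSMUSG00000039783.15, chr1:175620381-175662116), the mitochondrial kynurenine hydroxylase, was at 146, 274 and 272 CPM in WT and 322, 319.6 and 313 CPM in KO livers. It was the only member whose genotypes did not overlap, which held for 8.74% of all genes in the higher direction and 8.09% in the lower (16.8% together). Its log2 fold change was 0.46 ± 0.23 (adjusted p = 0.499), and it was 0.22 when WT 1, the lowest liver, was left out.

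*Kynu* (ENSMUSG00000026866.16, chr2:43555329-43682715), the kynureninase that makes 3-hydroxyanthranilate, was at 86.8, 74.4 and 75.8 CPM in WT 1, 2 and 3 and at 80.0, 136 and 131 CPM in *Sirt7* KO 1, 2 and 3. *Haao* (ENSMUSG00000000673.9, chr17:83831156-83847963), the dioxygenase that acts next, was at 358, 431 and 444 CPM in WT and 418, 773 and 685 CPM in KO livers. For both genes *Sirt7* KO 1 was within the WT range in CPM and the other KO livers were above it. The means of *Haao* were 411 ± 46.1 CPM in WT and 625 ± 185 CPM in KO livers (SD, n = 3 each). The log2 fold change of *Haao* was 0.60 ± 0.23 (95% interval 0.085 to 1.13, unadjusted p = 0.0273 and adjusted p = 0.364 by edgeR). The log2 fold change of *Kynu* was 0.55 ± 0.21 (95% interval 0.079 to 1.02, unadjusted p = 0.0268 and adjusted p = 0.363 by edgeR). *Haao* was the only member with a fold change over 1.5 (1.52), and would count among the 925 genes that pass that fold with an unadjusted p under 0.05.

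**Figure D2:**
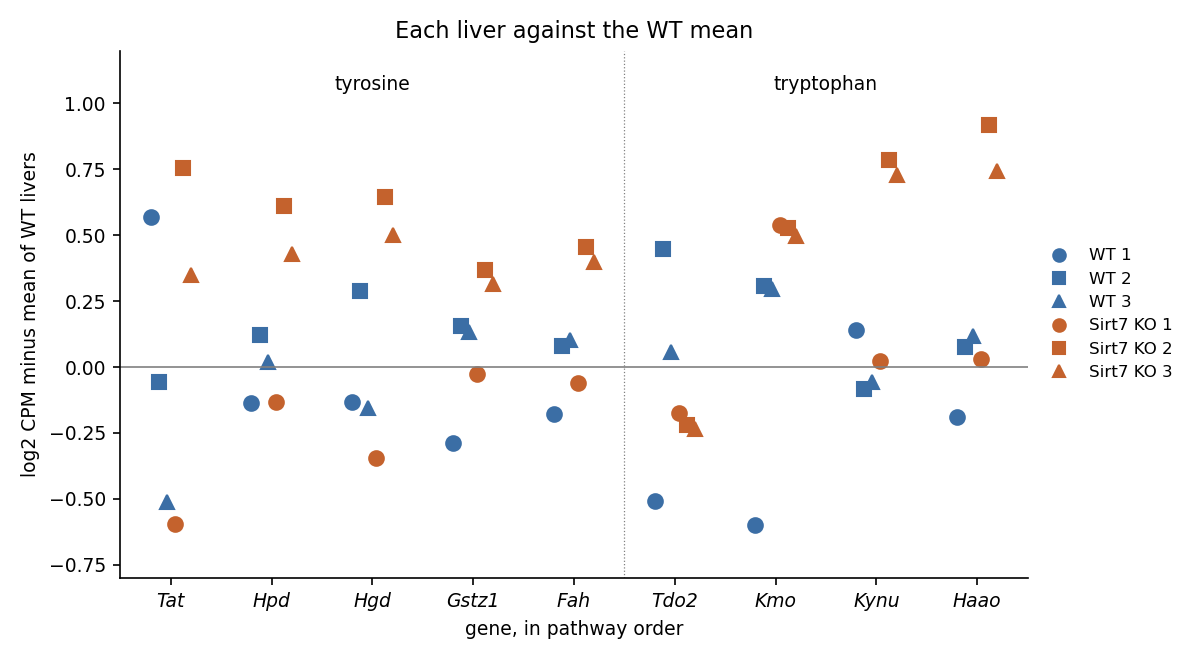
Log2 CPM of each liver minus the mean of the 3 WT livers (y axis), with the genes in pathway order on the x axis. Circles, squares and triangles are livers 1, 2 and 3 of a genotype, WT in blue and Sirt7 KO in orange. Sirt7 KO 2 and 3 lie next to each other and above WT from Hpd to Fah and again for Kynu and Haao, whereas Tat, Tdo2 and Kmo show other orders.

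A pattern shared by several members was that *Sirt7* KO 2 and 3 were above every WT liver and *Sirt7* KO 1 was not. It was seen in *Hpd*, *Hgd*, *Gstz1*, *Fah*, *Kynu* and *Haao*, 6 of the 9 members (66.7%), and in 1216 of the 12524 genes tested (9.71%). This pattern was described after the values were seen, and the 2 shares were not tested against each other. Of the pathway, transport and amino acid breakdown genes reported below, *Qdpr*, *Got1*, *Ddc*, *Ido2*, *Slc43a1*, *Cth*, *Gcat* and *Gldc* showed it too. *Acmsd*, *Dbt* and *Slc7a8* did not. Of the hepatocyte and zonation markers named below, *Cps1*, *Gulo* and *Cyp1a2* showed it. *Fgb*, *Aldh1b1*, *Cdh1*, *Hsd17b13*, *Glul*, *Cyp2e1* and *Lgr5* did not. The pattern is thus not particular to the members, and its share in the related lists was not counted. In CPM, *Sirt7* KO 2 was the highest liver for 7 members and WT 1 the lowest for 6. *Sirt7* KO 1 was, in CPM, above every WT liver for 1 member (*Kmo*), within the WT range for 6 and below it for 2 (*Tat* and *Hgd*). In TPM it was also below the lowest WT liver for *Hpd* (1280 against 1463), *Gstz1* (461 against 482) and *Fah* (331 against 369). The same held in TPM for *Haao* (348 against 358) and *Tdo2* (686 against 724).

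Relative to the WT mean, the median of the 9 members on the log2 scale was -0.06 in *Sirt7* KO 1, 0.61 in *Sirt7* KO 2 and 0.43 in *Sirt7* KO 3. Without *Sirt7* KO 1, the standard edgeR rule called 251 genes, among them *Kynu* (log2 fold change 0.76, adjusted p = 0.0368) and *Haao* (0.83, adjusted p = 0.0399). In that fit 5 members were higher at an unadjusted p under 0.05, and the median of the members was 0.50. The share of all genes at that level in that fit was not counted. Without *Sirt7* KO 2 the median was 0.17, and without *Sirt7* KO 3 it was 0.22, and no member reached an unadjusted p under 0.05 in either case. Over all alternatives the adjusted p ranged from 0.0368 to 0.743 for *Kynu* and from 0.0399 to 0.759 for *Haao*, with the highest values without *Sirt7* KO 2. *Sirt7* KO 1 was also the liver with the largest mitochondrial share of reads (3.17%), whose part in the result was not tested. The kidney expresses some of these enzymes too. The kidney markers summed to 35.3 CPM in *Sirt7* KO 3 and were at 0 in *Sirt7* KO 2. In CPM each of the 9 members was higher in *Sirt7* KO 2 than in *Sirt7* KO 3. In TPM *Tdo2* (766 against 772) and *Kmo* (112 against 121) were lower in *Sirt7* KO 2. Without *Sirt7* KO 3, the log2 fold change of *Haao* was 0.53 and that of *Kynu* 0.45. How many reads of the members came from kidney tissue in *Sirt7* KO 3 was not tested.

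**Figure D3:**
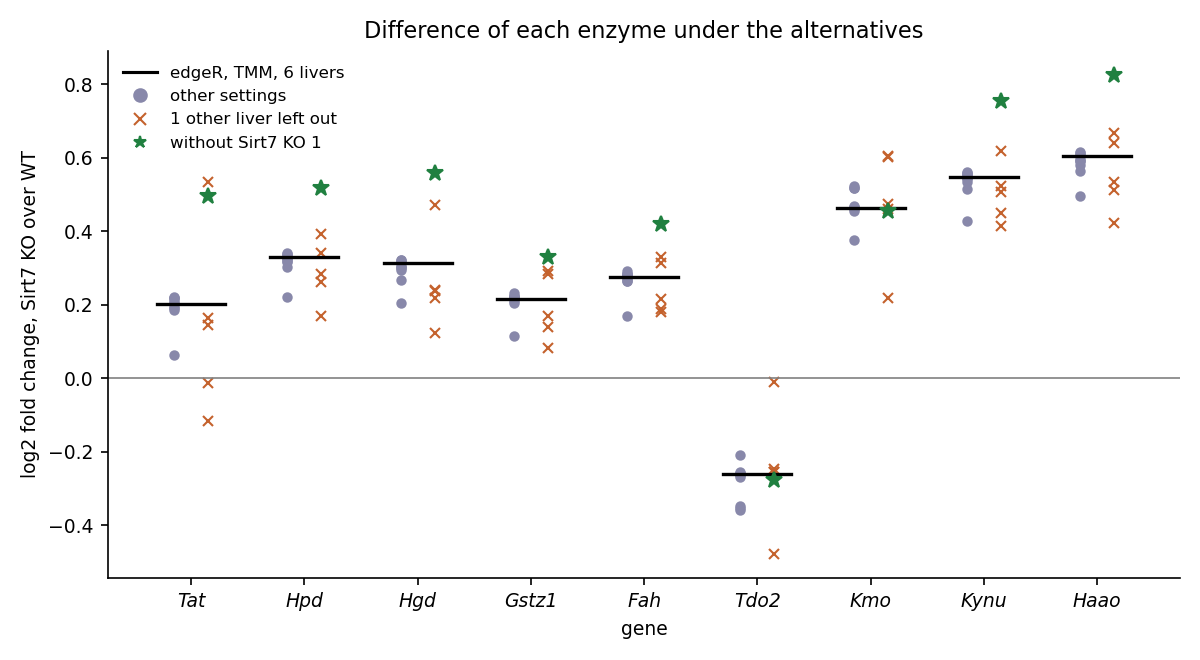
Log2 fold change (y axis, KO over WT) of each member under edgeR with TMM on 6 livers (black line), under other normalizations, filters, length offsets, DESeq2 and the replicate block (dots), and with 1 liver left out (crosses, and a star for the fit without Sirt7 KO 1). The dots stay on 1 side of 0 for every member, and the crosses pass 0 for Tat alone, while the stars for Kynu and Haao are the highest values at 0.76 and 0.83.

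The share of reads held by the leading isoform overlapped between genotypes for each of the 9 members. The most abundant isoform held on average 99.9% of the reads of *Fah* and of *Tat* in both genotypes, 96.9% of *Hpd* in WT and 97.4% in KO livers, and 94.5% and 94.9% of *Kmo*, so that 1 transcript carried these genes. *Hgd* was split between a transcript of 1702 bases (ENSMUST00000160847.1) and one of 1516 bases (ENSMUST00000159787.7). The first held 57.0%, 53.7% and 56.8% of the reads in WT and 60.9%, 47.4% and 48.3% in KO livers. In *Tdo2*, the leading transcript (ENSMUST00000193879.1) held 60.1%, 62.6% and 48.6% in WT and 36.5%, 64.5% and 65.8% in KO livers, with *Sirt7* KO 1 again apart from the other KO livers. The closest to a difference was *Haao*, whose leading isoform held 77.7% ± 3.15 of reads in WT and 80.5% ± 1.32 in KO livers (SD, n = 3 each, two-sided exact permutation test, p = 0.2, adjusted p = 1 over the 9 members). With 3 livers against 3, the exact permutation test cannot go below p = 0.1. *Hpd*, *Hgd*, *Gstz1* and *Kmo* overlap genes on the opposite strand, and the library kit does not mark the strand. *Gstz1* shares 11.3% of its words of 31 bases with other genes, mostly *Pomt2* on the other strand, which had 87.1 to 186 reads per liver.

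Other genes around the tyrosine route showed the same liver order in part. *Qdpr*, which regenerates the cofactor tetrahydrobiopterin, was at 312, 413 and 338 CPM in WT and 381, 843 and 676 CPM in KO livers (log2 fold change 0.84 ± 0.27, adjusted p = 0.289). *Got1*, a cytosolic aspartate aminotransferase, was at 149, 99.3 and 96.7 CPM in WT and 105, 367 and 201 CPM in KO livers (0.96 ± 0.39, adjusted p = 0.391). Of the 10 tested genes in this list (*Il4i1* had too few reads), 7 had a positive and 3 a negative log2 fold change, 2 were higher and 0 lower at an unadjusted p under 0.05, and 0 were called. The median was 0.043, and it was -0.065 when only total counts scaled the livers, so that the direction of this list is not fixed.

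The other genes of tryptophan breakdown included the gene with the largest difference of the 2 routes. *Acmsd* encodes the decarboxylase that draws the product of HAAO away from quinolinate and NAD. It was at 5.67, 8.07 and 8.14 CPM in WT 1, 2 and 3 and at 10.6, 40.4 and 29.1 CPM in *Sirt7* KO 1, 2 and 3, and all KO livers were above all WT livers. Its log2 fold change was 1.87 ± 0.42 (95% interval 0.91 to 2.83, adjusted p = 0.166 by edgeR), and DESeq2 called it with adjusted p of 3.4e-04 without and 0.00152 with length offsets. Over all alternatives its adjusted p ranged from 3.1e-13 with no filter on low counts to 0.442 without *Sirt7* KO 2. *Acmsd* is also a kidney gene, and of the 2 livers with its highest levels, *Sirt7* KO 3 held reads of all 6 kidney markers and *Sirt7* KO 2 of none. Its log2 fold change was 1.80 without *Sirt7* KO 3, and the part of kidney reads in it was not tested. *Ddc*, the aromatic amino acid decarboxylase, was at 40.4, 56.1 and 30.8 CPM in WT and 53.9, 101 and 83.3 CPM in KO livers (0.91 ± 0.27, adjusted p = 0.254). *Ido2*, a relative of TDO2 in function, was at 15.3, 38.6 and 31.7 CPM in WT and 38.1, 54.8 and 46.9 CPM in KO livers (0.71 ± 0.30, adjusted p = 0.421). In all, 12 of 14 tested genes of this list had a positive log2 fold change, 3 were higher and 0 lower at an unadjusted p under 0.05, 0 were called by edgeR, and the median was 0.21 (0.11 to 0.25 under the other settings on 6 livers).

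**Figure D4:**
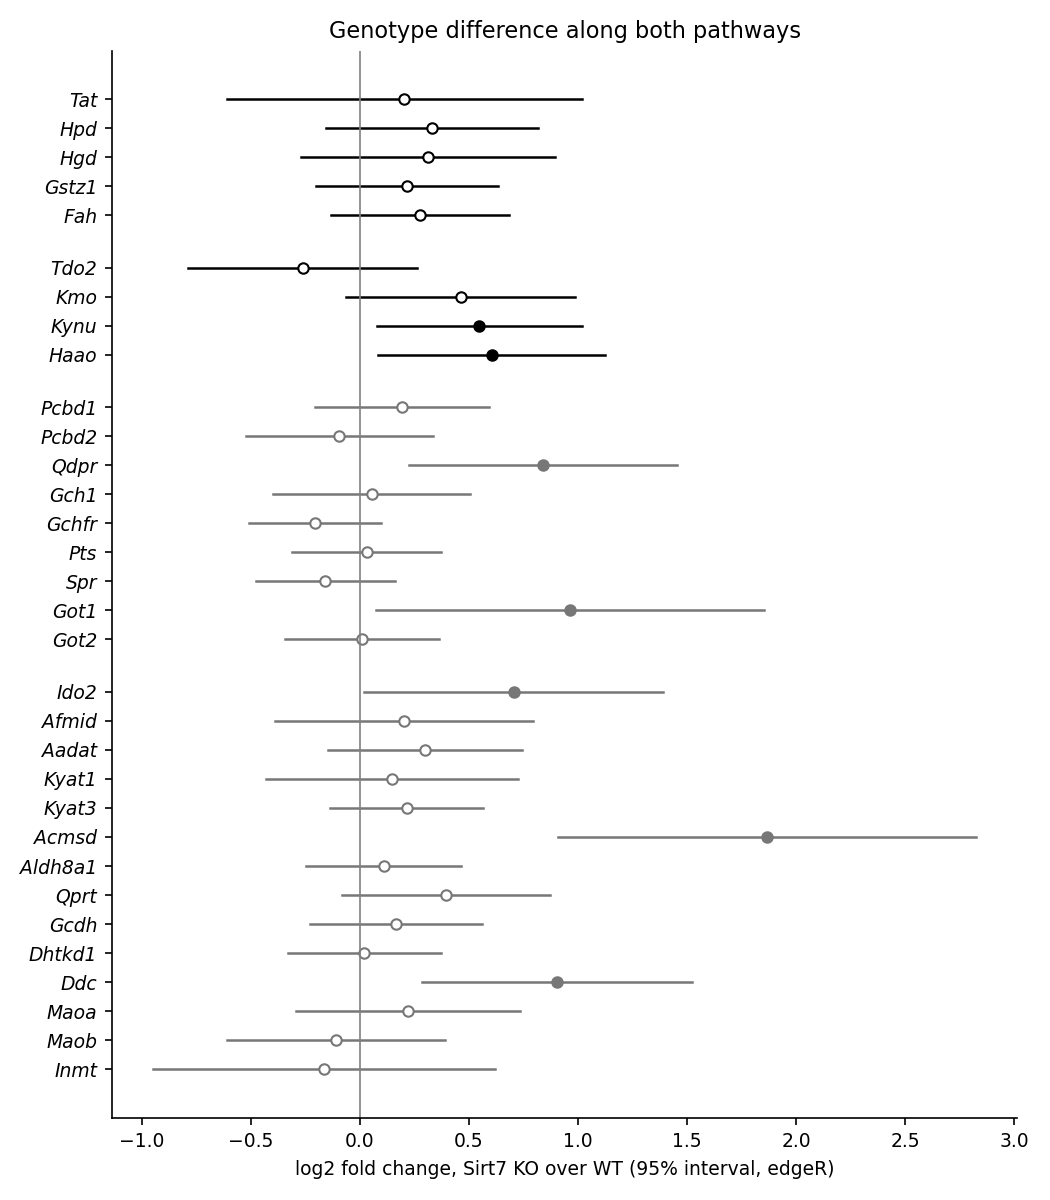
Log2 fold change of KO over WT (x axis) with its 95% interval from edgeR for the 9 members (black) and for tested genes of the rest of both routes (gray), the tyrosine list above the tryptophan list. Filled points have an unadjusted p under 0.05. Most points lie to the right of 0 with intervals that include it, and Acmsd at 1.87 stands farthest out.

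Amino acid transport showed no called gene among 7 tested. The 2 genes with the largest differences were *Slc43a1*, a carrier of large neutral amino acids (mean 4.75 CPM in WT and 8.17 CPM in KO livers, log2 fold change 0.78, adjusted p = 0.566), and *Slc7a8* at 0.68 to 2.38 CPM (0.57, adjusted p = 0.776). The median of the list was 0.16, with 4 positive and 3 negative values. It was -0.11 when a mean of at least 50 counts per liver was required. That filter drops genes of few reads such as *Slc7a8*, all with positive values, so this median covers fewer genes.

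Because *Tat* and *Tdo2* respond to glucocorticoids, other genes with that property were compared. Of 18 such genes, all tested, 6 had a positive and 12 a negative log2 fold change, with a median of -0.22 (-0.34 to -0.21 under the other settings on 6 livers), and 0 were higher and 3 lower at an unadjusted p under 0.05. *Fkbp5*, a co-chaperone of the glucocorticoid receptor, was at 42.6, 42.9 and 74.4 CPM in WT and 20.2, 27.9 and 30.6 CPM in KO livers (log2 fold change -1.02 ± 0.25, adjusted p = 0.189 by edgeR and 0.0127 by DESeq2 without length offsets, with a range of 3.5e-05 to 0.458 over all alternatives). *Per1*, a clock gene, had a log2 fold change of -0.90 ± 0.35 (adjusted p = 0.369) and *Nfkbia*, the NF-kappaB inhibitor, of -0.41 ± 0.17 (adjusted p = 0.390). In CPM, every KO liver was below every WT liver for these 3 genes, for *Nfkbia* by a narrow margin (93.6 against 93.7 CPM). In TPM this held for *Fkbp5* but not for *Per1* or *Nfkbia*, and the log2 fold change of *Per1* was -0.37 in DESeq2 with length offsets.

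The genes closest in profile to *Tat* over the 6 livers, by the root mean squared difference of centred log2 CPM, were *Zbtb21* (0.172), *Bcdin3d* (0.184) and *Nfkbie* (0.186). For *Tdo2* they were *Wdr73* (0.032), *Myo10* (0.078) and *Entpd5* (0.094). None of these 6 genes is a member. *Zbtb21* (1.65 to 5.72 CPM), *Bcdin3d* (2.66 to 5.30 CPM) and *Nfkbie* (2.66 to 8.30 CPM) had few reads, against 553 to 1409 CPM for *Tat*. The matches are the nearest of all genes tested over only 6 livers, and how near a match would arise by chance was not tested. *Wdr73*, at 14.3, 27.0 and 20.2 CPM in WT and 18.1, 16.6 and 16.9 CPM in KO livers, had the same low WT 1 and high WT 2 as *Tdo2*.

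Markers of cell types were examined beside the members. Of 9 hepatocyte markers, 5 had positive log2 fold changes and 0 passed an unadjusted p under 0.05, with sums of 73123 to 78125 CPM in WT and 79743 to 92930 CPM in KO livers. *Sirt7* KO 2 and 3 had the highest sums (92930 and 88101 CPM), as for most members. *Fgb*, a fibrinogen chain, had a log2 fold change of 0.63 (adjusted p = 0.465). *Cps1*, a periportal urea cycle enzyme, was at 924, 927 and 1306 CPM in WT and 940.3, 1799.9 and 1895 CPM in KO livers (log2 fold change 0.55, adjusted p = 0.499). Of 9 tested pericentral markers, 6 had a positive and 3 a negative log2 fold change, with a median of 0.28. *Gulo* (0.74) and *Cyp1a2* (0.89) were higher at an unadjusted p under 0.05 and 0 were lower. The 3 negative ones, named after their values were seen, were *Glul* (-0.16), *Cyp2e1* (-0.22) and *Lgr5* (-0.032). Of 10 tested periportal markers, 8 had a positive and 2 a negative log2 fold change, with *Aldh1b1* (1.35) and *Cdh1* (1.63) higher and *Hsd17b13* (-0.90) lower at that level. *Cdh1* was at 2.66 without WT 3 and at 1.16 without WT 1. Macrophage markers summed to 117, 129 and 334 CPM in WT and 270, 111 and 208 CPM in KO livers, endothelial markers to 87.6 to 114 and 92.4 to 130 CPM, and stellate cell markers to 168 to 214 and 139 to 218 CPM. Cholangiocyte markers summed to 47.3 to 72.7 CPM in WT and 53.4 to 71.1 CPM in KO livers, and lymphocyte markers to 8.62 to 11.98 and 5.19 to 13.1 CPM. In these 5 lists 0 genes passed an unadjusted p under 0.05. The largest log2 fold changes in them were -2.47 for *Marco* and -0.95 for *Timd4* (macrophages), 0.41 for *Lyve1* and 0.34 for *Clec4g* (endothelium), 0.55 for *Col3a1* and -0.44 for *Rgs5* (stellate cells), 1.00 for *Krt19* and -0.81 for *Epcam* (cholangiocytes), and 0.39 for *Ptprc* and -0.99 for *Nkg7* (lymphocytes). Of the 10 macrophage markers, 6 had a positive and 4 a negative log2 fold change, with a median of 0.11. *Marco* was at 42.8 CPM in WT 3 and at 1.16 to 4.34 CPM in the other livers. The part of cell composition in the differences of the members was not tested.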

How the data were processed

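The authors made full-length cDNA from total liver RNA (SMART-seq HT, Nextera XT), trimmed reads (Trim Galore 0.6.5) and ran Salmon 1.2.1 on the GRCm38 transcriptome. The annotation release is not given in the sources used here. They deposited, per transcript and liver, estimated counts (unnormalized, not whole) and TPM (scaled to effective length and to a total per liver). Replicates were not pooled.

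Counts and TPM were summed over the transcripts of each GENCODE M21 gene. Of 140992 transcripts, 139172 matched with their version and 619 with another, and 1201 (0.303% to 0.492% of reads) had no gene and were left out. *Tf* was found under its symbol *Trf*, and of 2 identifiers for *Gcat* the one with more reads was used. Rounded gene counts were analyzed in edgeR 4.0.16 under R 4.3.3 (quasi-likelihood test, TMM, filterByExpr with minimum count 10, Benjamini-Hochberg over all tested genes). A gene was called when its adjusted p was under 0.05 and its fold change over 1.5. Standard errors were the absolute log2 fold change divided by the root of F. CPM values were scaled by TMM. Isoform shares were compared by exact permutation over livers. DESeq2 1.42.0 served as an alternative, with and without average transcript length offsets. The edgeR step was tested on simulated data. Other scripts used Python 3.11.15 and scipy 1.17.1.

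Genotypes came from the labels. The members and lists were chosen with earlier results of these data known. Named were all 9 members, *Sirt7*, in every other list the genes with an unadjusted p under 0.05 (at most 6) or else the 2 with the largest absolute log2 fold change, and the 3 genes most like *Tat* and *Tdo2*. A further gene that the rule names counts in its list but is not reported here. Kidney markers were counted as reads because none passed the filter. The lists covered the rest of both routes, transport, other amino acids, glucocorticoid-responsive genes, transcription factors and cell type markers. Fits were repeated with RLE, upper quartile or total-count scaling, without the filter or requiring a mean of 50 counts per liver, with length offsets, in DESeq2, at other thresholds, with the replicate block and without each liver, and isoform shares also from TPM. Livers of the same genotype differed by more than sampling noise (chi-square of at least 15.8 per gene), so each counted as 1 sample. No molecular identifiers are named, so depth covers counting error only.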

Additional observations from a re-analysis of the deposited data

How the results depend on the processing

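The number of genes called, 1 by edgeR on 6 livers, was 2 with total counts, 633 with no filter on low counts, 2 with length offsets, 256 with DESeq2 without and 245 with length offsets, 41 with the replicate block, 925 at unadjusted p, and 0 to 251 with 1 liver left out. The cause of these shifts was not tested. Total counts moved the median of all genes to -0.11 (log2), and 1 member was then higher at an unadjusted p under 0.05. With 1 liver left out, 0 to 2 members were called and 0 to 5 were higher at that level, the highest counts coming without *Sirt7* KO 1. At that level 0 to 1 members were lower, with 1 lower without WT 1. Shares of all genes at that level were counted only for the main fit on 6 livers. The 9 members were uncalled in every setting on 6 livers except the unadjusted threshold, which *Haao* passes, and 8 had a positive log2 fold change in each of these. The log2 fold change of *Tat* was -0.12 to 0.53 with 1 liver left out. The same range was -0.040 to 1.29 for *Lyve1*, -3.02 to 0.37 for *Marco* and -0.52 to 1.118 for *Ptprc*. *Sirt7* was at 0.80 with length offsets in edgeR and 0.81 in DESeq2 with offsets. The median of the transcription factors was -0.37 with total counts, -0.17 with length offsets and -0.16 in DESeq2 with offsets. The median of transport was -0.11 with a mean of at least 50 counts, over fewer genes, and -0.058 to 0.30 with 1 liver left out. By TPM, the share of the leading isoform (KO minus WT) differed by 0.077 points in *Fah* and -2.58 in *Kmo*, against -0.018 and 0.46 by reads. It differed by 2.01 points in *Tdo2* and 0.17 in *Kynu*, against -1.46 and -0.44 by reads. The direction in these genes thus depended on the measure.

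No label says that the numbers pair mice, and whether they do was not settled. Same-numbered WT and KO livers had correlations of deviations of 0.065, 0.073 and -0.047. WT 1, WT 2, *Sirt7* KO 1 and *Sirt7* KO 2 correlated best with their own number, and WT 3 and *Sirt7* KO 3 did not. The replicate block, with 41 genes called, left *Haao* at 0.56 (adjusted p = 0.269) and the members with 0 calls. Depth limits low genes such as *Slc7a8* more than the members, which had at least 74.4 CPM.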

Other observations

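Breakdown genes of other amino acids leaned in the same direction as the members. Of 31 tested genes, 24 had a positive and 7 a negative log2 fold change, with a median of 0.23 (0.12 to 0.24 under the other settings on 6 livers), 4 were higher and 0 lower at an unadjusted p under 0.05, and 0 were called. *Dbt*, the E2 subunit of the branched-chain keto acid dehydrogenase, was at 18.1, 19.7 and 21.7 CPM in WT and 29.0, 35.4 and 33.5 CPM in KO livers, with no overlap (log2 fold change 0.72 ± 0.15, adjusted p = 0.152 by edgeR). *Cth*, which makes cysteine from cystathionine, was at 367, 406 and 327 CPM in WT and 285, 1110 and 734 CPM in KO livers (0.95 ± 0.40, adjusted p = 0.405), and its log2 fold change was 1.33 without *Sirt7* KO 1 and 0.48 without *Sirt7* KO 2. *Gcat*, of threonine breakdown, had 0.70 ± 0.24, and *Gldc*, of glycine cleavage, had 0.42 ± 0.18. In *Cth*, *Gcat* and *Gldc*, *Sirt7* KO 2 and 3 were above every WT liver and *Sirt7* KO 1 was not. For *Gldc* this rested on a narrow margin (155.9 CPM in *Sirt7* KO 1 against 156.8 CPM in WT 2).

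Of 12 liver transcription factors, all had a negative log2 fold change, with a median of -0.27, and 3 were lower at an unadjusted p under 0.05, with 0 called. The sign of the median was the same under every normalization, filter and tool run, and these 12 genes are not independent of each other. *Nr5a2*, a nuclear receptor of bile acid and cholesterol metabolism, was at 10.8, 13.4 and 8.43 CPM in WT and 6.78, 5.72 and 6.45 CPM in KO livers (-0.78 ± 0.24, adjusted p = 0.258). *Onecut1* had -0.81 ± 0.29 (adjusted p = 0.346), also with no overlap. *Cebpb*, a factor of acute phase and gluconeogenic genes, was at 56.9, 68.1 and 28.1 CPM in WT and 34.1, 11.1 and 5.01 CPM in KO livers (-1.60 ± 0.59, adjusted p = 0.356), and its log2 fold change was -2.67 without *Sirt7* KO 1 and -1.17 without *Sirt7* KO 3.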
